A study of Bos taurus with 16 samples.

Results

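Mucins are heavily glycosylated proteins, and their sugar side chains are built one residue at a time by glycosyltransferases of the Golgi. The genes described here are those whose name in the array files marks them as a numbered mucin or as a member of the GALNT, GCNT, B3GNT, B3GALT, B4GALT, ST3GAL, ST6GAL, ST6GALNAC, FUT or CHST families. This rule found 82 of the 25381 distinct gene or transcript names on the array by current symbol, measured by 155 of its 43653 probes. Of these, 120 probes of 65 genes were bright enough to test, and the other 35 probes were not tested. The rule works on names and uses no measured value.

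GALNT enzymes attach the first sugar, N-acetylgalactosamine, to serine or threonine, and GCNT enzymes add the branch that follows. B3GNT, B3GALT and B4GALT enzymes lengthen the chains. ST3GAL, ST6GAL and ST6GALNAC enzymes cap them with sialic acid, FUT enzymes add fucose, and CHST enzymes add sulphate. On the endometrial surface, membrane mucins such as MUC1 form part of the barrier that bacteria meet after parturition and that an embryo meets later. Several of these enzymes also act on N-glycans, glycolipids or proteoglycans, so a change in one of them is not a change in mucins as such.

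Endometrium lines the uterus, and here it came from 4 cows (Bos taurus) labelled as fertile, biopsied with forceps from the uterine horns at nominal days 10, 30, 50 and 100 after parturition. True sampling days were 9 to 10, 29 to 30, 49 to 51 and 99 to 100. The labels give no breed, age, treatment or genotype, and all 4 groups hold the same 4 animals. Each of the 16 arrays holds 1 biopsy of 1 cow, so each time has n = 4, and each cow was compared with itself. A level below is the log2 processed signal of a probe relative to percentile 75 of its array, and a difference is a log2 difference between 2 times. A probe was called when its limma adjusted p, over all 33182 tested probes, was under 0.05.

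The biopsies varied in their tissue make-up. The mean level of 18 epithelial marker genes, each centred on its own mean over all arrays, ran from -2.80 to 0.81 at day 10, from -2.38 to 0.42 at day 30, from 0.77 to 1.35 at day 50 and from -3.89 to 2.88 at day 100. By limma, 0 of the 18 epithelial and 0 of the 10 smooth muscle markers were called between day 10 and a later time, with 0, 3 and 1 epithelial markers and 0 smooth muscle markers at an unadjusted p under 0.05 at days 30, 50 and 100. All 18 epithelial markers were well above background in every cow at day 50, and 14 of 18 were so in cow 2 at day 100, where the list was lowest. Of the macrophage list, 10 of 10 tested markers fell from day 10 to day 100, and its level ran from 0.83 to 2.70 at day 10 and from -1.35 to -0.08 at day 100. Of 9 tested stromal fibroblast markers, HAND2 and PDGFRB fell by day 100, and the list ran from 0.15 to 1.07 at day 10 and from -1.51 to 0.23 at day 100. Of 7 T cell markers CD4 fell by day 100, and of 3 neutrophil markers S100A12 fell by day 50. Of 4 mast cell markers, CPA3 and TPSB2 rose by day 50, and the list ran from -2.15 to 0.27 at day 10 and from 0.00 to 2.09 at day 50. Of 8 ciliated epithelium markers CCDC39 rose by day 100. The part of these lists in the differences described here was not tested. In a bulk biopsy, fewer cells of a type and less RNA per cell cannot be told apart. Array brightness, as the median processed signal, lay between 51.1 and 154, and the dimmest pair of arrays were those of cows 2 and 3 at day 100. Each cow had its own slide, and on each slide the 4 times sat at the same positions, so time and position on the slide cannot be told apart.

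Across the set, 9 of the 120 tested probes, or 7.5%, were called between day 10 and day 100, against 4.6% of all tested probes, and all 9 fell. Of all tested probes 3.14% fell by the same rule and 1.46% rose. The 9 probes belong to 6 genes: ST6GALNAC4, ST6GALNAC6, ST6GAL2, FUT4, FUT10 and CHST12. Between day 10 and day 50, 1 probe was called, that of ST6GALNAC4, against 1.65% of all tested probes, 0.597% higher and 1.05% lower. Between day 10 and day 30, 0 of 120 were called by limma, against 0.419% of all, 0.0121% higher and 0.407% lower, and 15, or 12.5%, had an unadjusted p under 0.05, against 14% of all probes. At days 50 and 100 against day 10 that share was 21.7% and 29.2% of the set and 18.6% and 25.7% of all probes. Between days 30 and 50, 30 and 100, and 50 and 100, limma called 0 probes of the set and 0 of all probes, with an unadjusted p under 0.05 for 13.3%, 15.8% and 7.5% of the set and 9.32%, 12.8% and 3.14% of all probes. The F test over all times called 1 member, ST6GALNAC4 (adjusted p = 0.0309), against 1.03% of all probes. Measured values of day 10 did not overlap those of days 30, 50 and 100 for 11, 16 and 20 of the 120 probes. The shares over all tested probes were 8.51%, 16.9% and 11.1%, so a lack of overlap in 1 gene is common on these arrays.

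The count at day 100 depended on single animals. It was 0 without cow 1, 0 without cow 3, 5 without cow 2 and 3 without cow 4, and 1 without the day 10 array of cow 1. It was 4 without the day 10 array of cow 4, 6 without the day 100 array of cow 1 and 12 without that of cow 2. Without cow 1 or cow 3 the calls over all probes dropped too, to 73 and 83 from 1527. For the other omissions only the set is counted here, so these swings are not read as particular to it. The median difference of the 120 probes at day 100 was -0.46, against -0.07 over all tested probes. Of the 120, 83 were below 0, or 69.2%, against 54.2% of all tested probes. The sign turned with normexp, which corrects the background in another way, to 0.20 for the set and 0.25 for all probes, with 47 of 120 below 0. At day 30 the median was -0.29 against -0.01, with 87 of 120 below 0, or 72.5%, against 50.5% of all tested probes. There normexp left medians of -0.07 against 0.11.

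**Figure D1:**
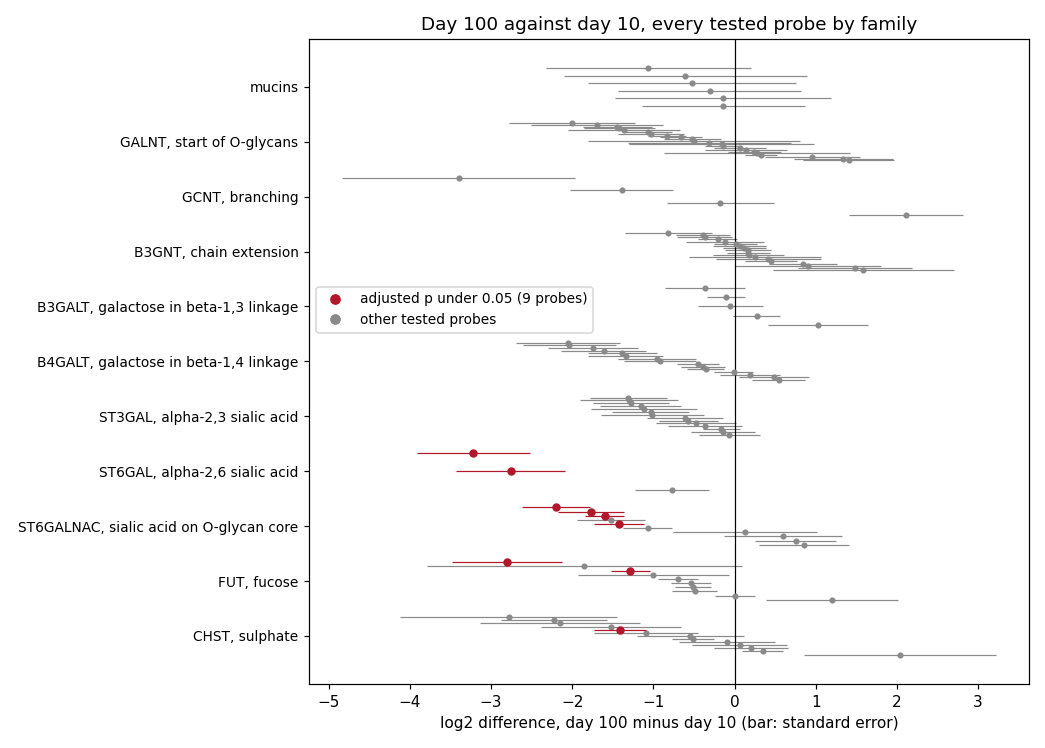
Difference between day 100 and day 10 (log2, horizontal axis) of each of the 120 tested probes, grouped by enzyme family, with standard errors. The 9 called probes, in red, lie below 0 and belong to the ST6GAL, ST6GALNAC, FUT and CHST families, and the GCNT family spans the widest range, from -3.40 to 2.11.

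Of the 9 called probes, 4 measure the ST6GALNAC family, through ST6GALNAC4 and ST6GALNAC6, and there the identity of the probes matters. The files name 5 probes ST6GALNAC2, but 2 of them carry the RefSeq transcript of the gene now called ST6GALNAC4, for which RefSeq lists the other symbol as a synonym. The opening 30 of the 60 bases of these probes are shown to make the distinction visible, with capitals marking the longest run shared by any ST6GALNAC4 and ST6GALNAC2 probe, which was 7 bases.
ST6GALNAC4, probe with the higher mean: gggcctttgaACTGTGActgccagggccac
ST6GALNAC4, the other probe: acctgagttcccttccagccatacccttgg
ST6GALNAC2, probe with the highest mean: agtctgaaccaccagaaagtcctggcctct
ST6GALNAC2, a further probe: tccttctacggttttACTGTGAacacaatg
ST6GALNAC2, a further probe: aagtgggagcacaaagggcagaaagtcatt
On bovine build Btau_3.1 the files place the 3 ST6GALNAC2 probes on the plus strand of chromosome 19, at chr19:56860549-56860608, chr19:56851998-56852057 and chr19:56860429-56860488, and give no position for the ST6GALNAC4 probes. Positions relative to exons and untranslated regions were not analysed here. Across all 155 probes, probes of different genes shared at most 13 bases in a row, while 3 pairs of probes of the same gene overlapped, so those pairs are not separate measurements.

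ST6GALNAC4 adds sialic acid to short O-glycans that already carry one. On the probe with the higher mean its level at day 10 was 3.16, 3.41, 3.37 and 3.07 in cows 1 to 4. At day 30 it was 2.07, 2.71, 2.56 and 2.24, at day 50 it was 1.77, 1.44, 2.0 and 2.29, and at day 100 it was 1.54, 2.02, 1.32 and 1.72. Every day 10 value lay above every value of the 12 later arrays. Its fall was 1.38 ± 0.24 on the log2 scale by day 50 (SE, 2.60-fold, limma adjusted p = 0.0249) and 1.60 ± 0.24 by day 100 (3.03-fold, adjusted p = 0.00887), in 4 of 4 cows each time. The difference of -0.86 ± 0.24 at day 30 was not called (adjusted p = 0.151). The day 100 call was lost without cow 1 (adjusted p = 0.0753) or cow 3 (adjusted p = 0.0986), with differences of -1.59 and -1.45.

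The other ST6GALNAC4 probe stood at -0.54, -0.39, -0.39 and -0.81 at day 10 and at -2.32, -2.18, -3.95 and -2.48 at day 100, again without overlap. It fell by 2.20 ± 0.41 (4.60-fold, limma adjusted p = 0.0190). ST6GALNAC2, a related sialyltransferase that prefers the unsialylated core, was not called. The level of its probe with the highest mean was -0.46, -3.01, -1.70 and -0.47 at day 10 and 1.35, -2.50, -0.57 and -0.51 at day 100. These values overlap, and cow 2, whose epithelial list was lowest at both times, was lowest at both. The part of tissue make-up in these values was not tested. Its day 100 difference was 0.85 ± 0.56 (adjusted p = 0.354), and its other 2 probes had differences of 0.60 and 0.75.

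**Figure D2:**
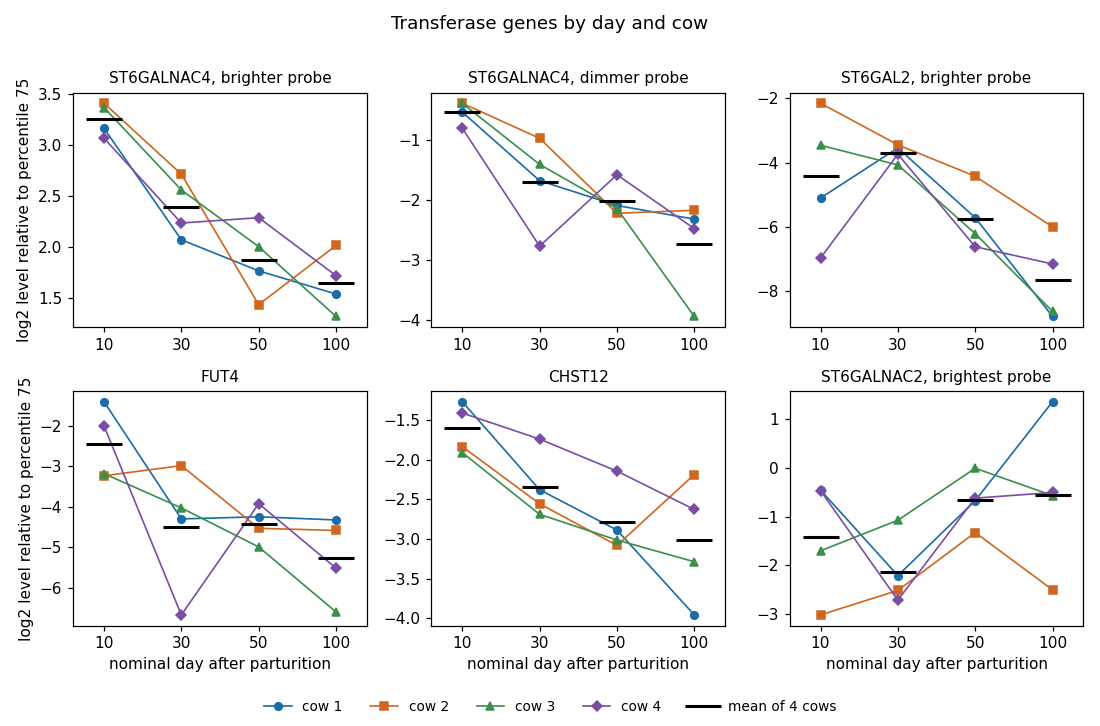
Level of 6 probes (log2 relative to percentile 75 of the array, vertical axis, a separate scale per panel) against nominal day after parturition, with a line per cow and a black bar for the mean of the 4 cows. Both ST6GALNAC4 probes are above all later values at day 10, and ST6GAL2 is lowest at day 100. ST6GALNAC2 is higher at day 50 than at day 30 in 4 of 4 cows, a difference of 1.46 that was not called (limma adjusted p = 0.508).

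ST6GALNAC6, which adds sialic acid to glycolipids and O-glycans, was measured by 4 probes, and 2 of them were called at day 100. One stood at -4.07, -3.46, -3.70 and -4.34 at day 10 and at -5.65, -4.90, -5.30 and -5.41 at day 100, with no overlap, and fell by 1.42 ± 0.31 (2.68-fold, limma adjusted p = 0.0286). The other called probe stood at -3.87, -2.72, -3.17 and -3.93 at day 10 and at -5.74, -3.84, -6.04 and -5.12 at day 100, and fell by 1.77 ± 0.41 (adjusted p = 0.0373). There the groups overlapped, because cow 2 at day 100 was above cows 1 and 4 at day 10. The probe with the highest mean gave levels of 1.85, 2.45, 2.41 and 1.90 at day 10 and -0.13, 1.62, 1.40 and 1.44 at day 100. Its groups did not overlap, but its difference of -1.07 ± 0.30 was not called (adjusted p = 0.0631). The remaining probe had a difference of -1.53. With normexp the first called probe had a difference of -0.06 (adjusted p = 0.903) and the second -0.27 (adjusted p = 0.534).

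ST6GAL2 places sialic acid in alpha-2,6 linkage on galactose, mostly of N-glycans. The files place its probes on the plus strand at chr11:47298412-47298471 and chr11:47312548-47312607, and their opening 30 bases show that they probe different stretches of the transcript.
ST6GAL2, probe with the higher mean: ttacattcttcaccccaagtttatctggca
ST6GAL2, the other probe: gttgtgcgtcagtaacataacaaagccata
On the probe with the higher mean the level at day 10 was -5.10, -2.16, -3.46 and -6.96, at day 30 it was -3.55, -3.45, -4.07 and -3.74, at day 50 it was -5.71, -4.42, -6.21 and -6.61, and at day 100 it was -8.78, -6.00, -8.62 and -7.15. At day 100 it was well above background in 0 of 4 cows, at day 10 in 2 of 4, and at days 30 and 50 in all 4. Cows 2 and 3 were high at day 10, and cow 4 at day 10 lay below cow 2 at day 100, so the groups overlap. These levels are near background, and their values below it are bounds. Day 100 levels under the lowest signal well above background were raised to it for a fold. The measured day 10 mean was then 4.34-fold higher on this probe (measured means -7.64 and -4.42, limma adjusted p = 0.0300). On the other probe it was 2.18-fold higher (adjusted p = 0.0429). Each probe was well above background in 2 of 4 cows at day 10, so these folds are not minimum values. Within the cows both probes were measured lower at day 100 in 4 of 4. In cows not well above background at day 10, both levels of the pair are bounds, and the direction is uncertain. On the brighter probe cow 1 at day 10 (-5.10) lay below the lowest level well above background on its array (-4.91). Cows 2 and 3 were also those with high smooth muscle markers at day 10, at 1.73 and 1.42 against -1.59 and -1.69 in cows 1 and 4. With the epithelial minus smooth muscle level as a term in the fit, the brighter probe's difference was -2.78 (adjusted p = 0.0120). That term is measured on the same arrays, and the part of tissue make-up in the ST6GAL2 values was not tested.
With normexp both ST6GAL2 calls were lost. The brighter probe's difference was -0.41 (adjusted p = 0.461), a smaller fall than the fold above. The second probe's difference changed sign to 0.15 (adjusted p = 0.767). The related ST6GAL1, the main alpha-2,6 sialyltransferase of many tissues, was well above background in 2 of 4 cows at day 10 and in 0 of 4 at day 100. Its measured levels were -7.04, -6.86, -6.39 and -6.06 at day 10 and -7.44, -6.13, -8.73 and -7.17 at day 100, with overlapping groups and no call.

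The ST3GAL enzymes, which place sialic acid in alpha-2,3 linkage, had 14 tested probes of 6 genes, with 0 calls by limma at days 30, 50 and 100 and 2, 1 and 3 probes at an unadjusted p under 0.05. At day 100 all 6 had differences below 0, with a median of -0.52, while with normexp or with quantile normalization 5 of 6 were below 0. ST3GAL1, which caps the simplest mucin core, varied little: -2.86, -3.68, -3.61 and -3.23 at day 10 against -3.46, -3.63, -4.43 and -4.21 at day 30. That difference was -0.58 ± 0.23 (limma adjusted p = 0.289). ST3GAL3, which acts on chains ending in galactose, gave -0.52, -0.94 and -1.77 in cows 2 to 4 at day 10, where the spot of cow 1 was nonuniform and dropped from the fit. At day 100 it gave -3.95, -0.95, -3.24 and -1.94, a difference of -1.31 ± 0.60 that was not called (adjusted p = 0.204).

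Among the fucosyltransferases, FUT4 and FUT10 had called probes. FUT4 adds the fucose of the Lewis X antigen, also called CD15, a marker of myeloid cells. Its probe lies on the minus strand at chr15:14222694-14222753, and the sequence is given because this single probe carries the result.
FUT4: ggactgcatttcctaaatacccgtttttaa
FUT4 stood at -1.40, -3.23, -3.18 and -2.0 at day 10, at -4.29, -2.98, -4.02 and -6.66 at day 30, at -4.24, -4.53, -4.99 and -3.92 at day 50 and at -4.32, -4.58, -6.59 and -5.51 at day 100. Cows 1 and 4 were highest at day 10, and no day 10 value overlapped day 50 or day 100. It fell by 2.80 ± 0.68 from day 10 to day 100 (6.96-fold, limma adjusted p = 0.0422), in 4 of 4 cows, and the differences at day 30 and day 50 were -2.04 and -1.97 and not called. The neutrophil markers, of which 3 of 8 could be tested, were also highest in cows 1 and 4 at day 10, at 6.03 and 6.29 against 1.28 and 0.12 in cows 2 and 3. Macrophage markers at day 10 were 1.97, 0.83, 1.53 and 2.70. Their part in the FUT4 result was not tested. The FUT4 call was lost without the day 10 array of cow 1 (adjusted p = 0.121) or of cow 4 (adjusted p = 0.119), while the difference stayed at -2.59 and -2.43. With normexp the difference was -0.82 (adjusted p = 0.166).

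FUT10 was measured by 2 probes that disagree. The probe with the lower mean gave -2.70, -3.75, -4.06 and -4.96 at day 10 and -4.77, -4.69, -5.26 and -5.89 at day 100. It fell by 1.29 ± 0.24 within the cows (2.44-fold, limma adjusted p = 0.0191), although the 2 groups overlap. The probe with the higher mean gave -1.98, -1.16, -1.46 and -3.02 at day 10 and -2.05, -1.37, -1.97 and -2.21 at day 100, a difference of 0.01 ± 0.25 (adjusted p = 0.990). With normexp the called probe's difference was 0.04 (adjusted p = 0.942). FUT8, which adds the core fucose of N-glycans, gave on its probe with the highest mean -0.76, -0.03, -0.21 and -0.32 at day 10 and -1.65, -0.44, -1.01 and -1.0 at day 100. It was lower in 4 of 4 cows with overlapping groups, and its difference of -0.69 ± 0.25 was not called (adjusted p = 0.114). The F test over all times gave this FUT8 probe an unadjusted p of 0.0121 and its other probes 0.0704, 0.147 and 0.222.

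Of the sulphotransferases, CHST12, which sulphates chondroitin chains of proteoglycans rather than mucins, was the called gene. Its probe lies on the minus strand at chr25:42693876-42693934 and begins as follows.
CHST12: tttcagatatttaatatgaaaagtggagaa
CHST12 stood at -1.27, -1.84, -1.91 and -1.41 at day 10, at -2.38, -2.56, -2.69 and -1.74 at day 30, at -2.89, -3.08, -3.01 and -2.15 at day 50 and at -3.96, -2.19, -3.29 and -2.63 at day 100. Day 10 was above day 50 and day 100 without overlap. It fell by 1.41 ± 0.32 from day 10 to day 100 (2.65-fold, limma adjusted p = 0.0353), in 4 of 4 cows, and the day 50 difference of -1.17 was not called (adjusted p = 0.0894). With normexp the day 100 difference was -0.89 (adjusted p = 0.0971). CHST7, which sulphates N-acetylglucosamine and galactosamine, gave -0.20, -0.18, -0.79 and -0.92 at day 10 and -5.03, -1.20, -2.73 and -2.01 at day 100. These did not overlap, but cow 1 at day 100 was far below the others, and the difference of -2.22 ± 0.65 was not called (adjusted p = 0.0701). Without the day 100 array of cow 2 it was -2.71 (adjusted p = 0.0336). Over the described probes not called at day 100, 12 alternative results gave a call, this one among them, and 285 did not.

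Of 6 tested mucin probes, limma called 0 at days 30, 50 and 100, and 0 had an unadjusted p under 0.05. Of the 6 mucin genes in the set, 3 were tested: the membrane mucins MUC1 and MUC4, and MUC12. The MUC12 name comes from the array files alone and matched no RefSeq entry used here, and the files place its tested probe at chr5:43715898-43715957, so which mucin it measures is uncertain. MUC15 and MUC3A were not well above background on any array, and MUC21 on 2. MUC1, on its probe with the highest mean, stood at 2.99, -1.89, -0.74 and 3.42 at day 10, at 0.37, 1.31, 2.18 and -0.31 at day 30, at 1.94, 1.56, 2.41 and 2.14 at day 50 and at 3.36, -4.42, 2.11 and 2.15 at day 100. Day 50 was the time at which the cows were most alike, and at days 10 and 100 the cows differed by far more than the times. The day 100 difference was -0.15 ± 1.33 (limma adjusted p = 0.957). The other 3 MUC1 probes also had no call, with day 100 differences of -1.06, -0.61 and -0.31.

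MUC1 and the epithelial list ranked the cows alike in part. That list stood at 0.81, -2.80, -0.89 and 0.69 at day 10 and at -0.50, -0.03, 0.42 and -2.38 at day 30. It stood at 0.96, 0.77, 1.35 and 0.95 at day 50 and at 2.88, -3.89, 0.92 and 0.74 at day 100. In both sets of values cow 2 was lowest at days 10, 50 and 100, and cow 4 was lowest at day 30. Cow 3 was highest in both at days 30 and 50, and cow 1 at day 100. At day 10 the highest cow differed, cow 4 for MUC1 and cow 1 for the list. The part of tissue make-up in the MUC1 values was not tested. MUC4 stood at -6.78, -7.03, -5.50 and -3.26 at day 10 and at -2.43, -7.91, -6.95 and -7.37 at day 100, with 1 of 4 cows well above background at day 100 and a difference of -0.52 (adjusted p = 0.822). MUC12 was well above background in 1 cow at day 10 and 1 at day 100, with levels of -4.11, -8.74, -8.86 and -8.80 and of -5.85, -8.08, -8.66 and -8.47. All 3 mucin differences at day 100 lay below 0, and with normexp all 3 lay above.

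**Figure D3:**
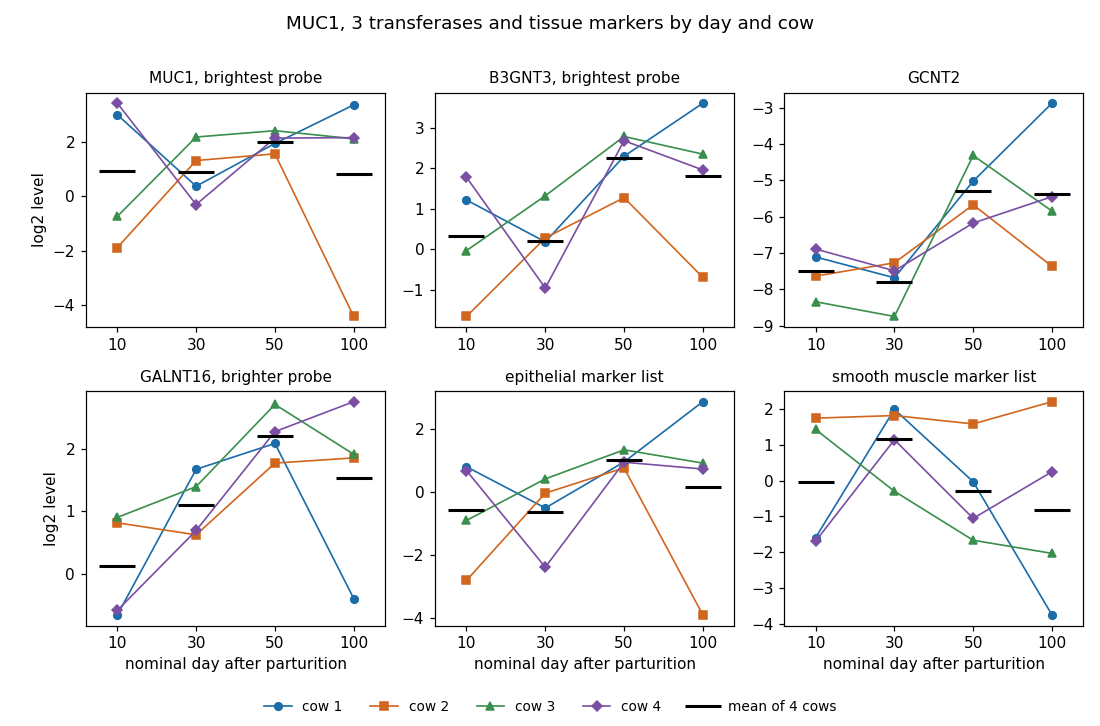
Levels of MUC1, B3GNT3, GCNT2 and GALNT16 (log2 relative to percentile 75) and of the epithelial and smooth muscle marker lists (mean log2, each gene centred on its mean) against nominal day, with a line per cow and a black bar for the mean. Cow 2 at day 100 is lowest in MUC1 and in the epithelial list, and highest in the smooth muscle list.

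In the chain-starting GALNT family, 22 probes of 13 genes were tested, with 0 calls by limma and 1, 4 and 9 probes at an unadjusted p under 0.05 at days 30, 50 and 100. GALNT16, which the files name GALNTL1, stood at -0.65, 0.82, 0.90 and -0.58 at day 10, at 2.08, 1.77, 2.70 and 2.27 at day 50 and at -0.39, 1.85, 1.91 and 2.75 at day 100. Day 50 lay above day 10 without overlap, and the difference of 2.08 ± 0.56 was not called (4.24-fold, limma adjusted p = 0.0848). GALNT1, a broadly expressed member, went the other way, from 0.99, -0.21, 0.01 and 0.69 at day 10 to -0.35, -0.60, -1.02 and -0.81 at day 100. These did not overlap, with a difference of -1.06 ± 0.30 (adjusted p = 0.0629). Of the family 9 of 13 genes were below 0 at day 100, and with normexp 4 of 13.

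The branching GCNT enzymes had 4 tested genes with 1 probe each, 0 calls by limma, and 1, 1 and 2 at an unadjusted p under 0.05 at days 30, 50 and 100. GCNT2, which makes the branched I antigen, was well above background in 1 cow at day 10, 0 at day 30, 4 at day 50 and 3 at day 100. Its levels were -7.11, -7.64, -8.34 and -6.89 at day 10, -5.02, -5.67, -4.31 and -6.18 at day 50, and -2.87, -7.37, -5.85 and -5.45 at day 100. Day 50 lay above day 10 without overlap, by 2.20 ± 0.71 (limma adjusted p = 0.133), and GCNT2 was measured higher in 4 of 4 cows at both later times. In cows 1 to 3 the day 10 levels were below the lowest level well above background on their arrays (-4.91, -6.78 and -6.93). They are therefore bounds, and the size of these differences and the lack of overlap are uncertain. The bound of -4.91 in cow 1 lies above its day 50 level, and cow 2 at day 100 was also below that of its array (-6.11). In these pairs the direction is uncertain too. At day 100 the difference was 2.11 (adjusted p = 0.0967), and without the day 100 array of cow 2 it was 2.77 (adjusted p = 0.0303). The latter is another of the 12 alternative results with a call, against 285 without, over the described probes not called. GCNT4 stood at -6.82, -6.81, -5.81 and -5.16 at day 10 and was not well above background in any cow at days 30 and 100. Against levels raised to the lowest signal well above background, its measured day 10 mean was 1.25-fold above day 30 and 1.31-fold above day 100. The limma adjusted p were 0.240 and 0.195. At day 10 it was well above background in 2 of 4 cows, so these folds are not minimum values.

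Of the B3GNT enzymes, which extend chains with N-acetylglucosamine, 18 probes of 8 genes were tested, among them B4GAT1, which the files name B3GNT1 and which is now known as a glucuronyltransferase, with 0 calls by limma and 0, 6 and 0 at an unadjusted p under 0.05 at days 30, 50 and 100. B3GNT6, which makes the core 3 O-glycan, had the smallest adjusted p of the family: -3.60, -3.68, -3.50 and -4.19 at day 10 and -1.71, -0.74, -1.80 and -3.48 at day 50. All 4 cows were higher at day 50, without overlap, by 1.81 ± 0.42 (3.51-fold, limma adjusted p = 0.0576). Its other 2 probes had differences of 1.32 and 1.59 at day 50, and 1 of them overlaps the described probe by 43 bases. B3GNT3, which extends core 1 chains, stood at 1.22, -1.66, -0.03 and 1.78 at day 10, at 2.30, 1.28, 2.79 and 2.69 at day 50 and at 3.61, -0.70, 2.35 and 1.96 at day 100. It was higher in 4 of 4 cows at both later times, with overlapping groups and differences of 1.94 and 1.48 that were not called (adjusted p = 0.173 and 0.210). Cow 2 was its lowest animal at days 10, 50 and 100.

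The B3GALT enzymes, which add galactose in beta-1,3 linkage, had 3 tested genes and 0 calls by limma, with 1 of 5 probes at an unadjusted p under 0.05 at day 30. That was B3GALT2, at -5.34, -2.94, -3.20 and -4.53 at day 10 and at -1.75, -2.30, -2.18 and -0.68 at day 30. Day 30 lay above day 10 without overlap, and the difference of 2.28 ± 0.62 was not called (limma adjusted p = 0.140). B3GALT4, which acts on gangliosides, was between 0.27 and 1.95 on all arrays. Its differences from day 10 were -0.09, 0.33 and 0.27 and none was called.

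The B4GALT enzymes, which add galactose in beta-1,4 linkage, had 7 tested genes, all of them below 0 at day 30 and 6 of them at day 100, counts that were the same with normexp and with quantile normalization. Their median difference was -0.64 at day 30 and -0.96 at day 100, and with normexp it was -0.25 and -0.33. At day 50, 6 of 7 were below 0, and with quantile normalization 5. By limma 0 of their 15 probes were called, with 6, 3 and 6 at an unadjusted p under 0.05 at days 30, 50 and 100. B4GALT5, which also makes lactosylceramide, stood at 0.40, -0.81, -0.53 and 0.45 at day 10, at -1.28, -1.52, -1.69 and -3.31 at day 30, at -1.66, -1.60, -1.59 and -1.42 at day 50 and at -0.24, -1.39, -3.13 and -2.17 at day 100. Days 30 and 50 lay below day 10 without overlap, with differences of -1.83 ± 0.52 and -1.45 ± 0.52 (limma adjusted p = 0.157 and 0.172). B4GALT6, the other lactosylceramide enzyme, stood at -6.48, -4.36, -4.36 and -4.65 at day 10 and at -7.35, -6.24, -7.55 and -6.84 at day 100, with a difference of -2.03 ± 0.58 (adjusted p = 0.0641). It was well above background in 3 cows at day 10 and 1 at day 100, so the size of this difference rests on levels below background.

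The difference between the epithelial and smooth muscle lists was also entered as a term in the fit. It ran from -6.09 in cow 2 to 6.62 in cow 1 at day 100. With it, 22 of 120 probes of 16 genes were called at day 100, or 18.3%, against 7.98% of all tested probes, and 20 of them fell. All 9 probes called without the term were among them. At day 50, 7 probes were called, 4 higher and 3 lower, against 3.85% of all probes. Genes called at day 100 in this fit alone included GCNT3, a mucin-type branching enzyme, at -4.34 ± 0.93 (limma adjusted p = 0.0252), and GALNT3 at -1.12 ± 0.25 (adjusted p = 0.0270). They also included GALNT16, which rose by 1.73 ± 0.43 (adjusted p = 0.0394) at day 100 and by 2.47 at day 50 (adjusted p = 0.0198), and B3GNT6 and B3GNT3, which rose by 1.92 and 1.29 at day 50. GCNT3, GALNT3 and CHST4 were chosen after their values were seen. This term is itself measured on the same arrays, and the macrophage markers are not part of it.

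**Figure D4:**
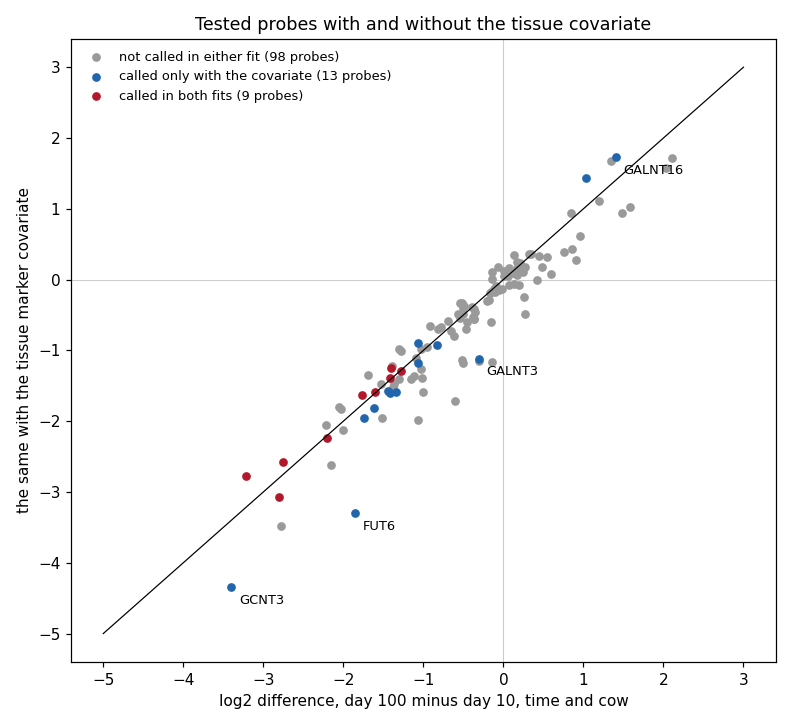
Difference between day 100 and day 10 (log2) of the 120 tested probes without the tissue term (horizontal) and with it (vertical), with a line of equality. The 9 probes called in both fits are in red and lie near the line, and 13 probes called only with the term are in blue, of which 10, with GCNT3 and FUT6 farthest, lie below the line and 3 above it.

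GCNT3, FUT6 and CHST4, also chosen after their values were seen, had the widest SD between cows among the tested member genes at days 10, 100 and 50, in that order. GCNT3 stood at 1.83, -3.73, -2.86 and 1.93 at day 10 and at 1.13, -7.99, -4.66 and -4.91 at day 100. FUT6, which makes Lewis antigens and which the files name FUT5, stood at 2.63, -1.71, -2.15 and 1.65 and at 3.72, -6.05, -0.98 and -3.68. CHST4, which sulphates mucin chains that L-selectin binds, stood at 1.21, -2.84, -2.66 and 0.48 and at 0.93, -6.77, -4.60 and -4.50. In all 3 genes cows 1 and 4 were high at day 10, cow 1 alone was high at day 100, and cow 2 was lowest at day 100. Each gene was well above background in 3 of 4 cows at day 100, as was CHST4 at day 50. In cow 2 at day 100, GCNT3 and CHST4 lay below the lowest level well above background on that array (-6.11). Those 2 levels are bounds, so the size of such spreads and of the GCNT3 difference at day 100 is uncertain. Over the 65 tested member genes the median SD between cows was 0.65, 0.68, 0.43 and 1.03 at days 10, 30, 50 and 100, against 0.42, 0.49, 0.34 and 0.69 over all tested probes.

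Other genes of the pathway were taken from lists by function. Of 37 tested genes for other glycan-building enzymes, 0 were called by limma at days 30, 50 and 100 against day 10, with 3, 14 and 9 at an unadjusted p under 0.05. Of 16 tested partners of mucus secretion, such as trefoil factors, 0 were called either, with 0, 3 and 1 at an unadjusted p under 0.05. Of 27 genes that supply sugar and sulphate donors, GNE, the first enzyme of sialic acid synthesis, rose by 1.35 ± 0.28 at day 100 (limma adjusted p = 0.0261), and SLC26A2, a sulphate transporter, fell by 2.27 at day 50 (adjusted p = 0.0488) and by 2.53 at day 100 (adjusted p = 0.0224). Of 12 lectins, SIGLEC1, through which macrophages bind sialic acid, fell by 4.06 at day 30 (adjusted p = 0.0132) and by 3.23 at day 100 (adjusted p = 0.0134), and LGALS4, an epithelial galectin, rose by 1.76 by day 50 (adjusted p = 0.0472) and by 1.83 by day 100 (adjusted p = 0.0264). Of 15 glycan-degrading enzymes, SGSH, a lysosomal sulphatase, fell by 1.51 by day 50 (adjusted p = 0.0220) and by 1.20 by day 100 (adjusted p = 0.0263). The fall of SIGLEC1 went with that of the macrophage list given above, whose part was not tested.

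Of the 82 genes, 17 had no tested probe. The 9 never well above background were B3GALT1, B3GALT5, B3GNT7, FUT9, GALNT8, GALNTL5, GALNTL6, MUC15 and MUC3A. The other 8, CHST13, CHST3, CHST6, CHST8, FUT11, FUT7, MUC21 and ST6GALNAC1, were above it on 1 to 3 arrays. Their levels are therefore bounds and are not compared.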

How the data were processed

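Endometrial RNA of 4 cows at 4 times was hybridised to 16 one-colour Agilent arrays, 1 per cow and time. The deposited scanner files hold processed intensity values on a linear scale, background-subtracted by Agilent Feature Extraction 11.5.1.1 per the file headers, while the submitters' processing notes name version 10.5.1.1. A log2 value table that the authors deposited matched the scanner values shifted by percentile 75 and centred per probe (correlations of 0.9998 or higher, column medians from -0.16 to 0.21) and served as an alternative. The deposited columns other than intensity that mark spots as well above background or nonuniform hold 0 or 1.

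Processed signals were taken to log2, percentile 75 of the array was subtracted, nonuniform spots (4 to 125 per array) were left out and spots of 1 probe were averaged. A probe was tested where 4 or more of the 16 arrays showed it well above background, 33182 in all, with limma 3.58.1 in R 4.3.3, terms for time and cow, two-sided tests and Benjamini-Hochberg adjustment at 0.05. The pairing is by cow, since per the labels each animal was sampled 4 times. Deviations correlated with a median of 0.12 within cows and -0.04 between. The script was tested on simulated data. Precision is limited by there being 4 arrays a time.

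Of the 155 probes, 116 were named through a RefSeq accession of assembly ARS-UCD2.0, 36 by a current symbol and 3 by the file name. Described genes were those called, the tested mucins, and the 2 genes per family with the smallest F test p, each by its tested probe with the highest mean. For folds near background, levels of the dimmer group below the lowest signal well above background were raised to it. The brighter group was taken as measured, so such a fold is a minimum only where that group was itself well above background. The members and lists were chosen with earlier results of these data known. Alternatives are given in the closing section.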

Additional observations from a re-analysis of the deposited data

Results flagged for a closer look

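In 112 groups of 4 arrays examined, 28 probes at 4 times, 5 had 1 array far from the other 3 by a gap test, which chance flags in about 1 in 20 groups. MUC1 in cow 2 at day 100 stood at -4.42, against 2.11 to 3.36 in the others. MUC12 in cow 1 at day 10 stood at -4.11, against -8.86 to -8.74, levels below background. B4GALT6 in cow 1 at day 10 stood at -6.48, against -4.65 to -4.36, and was below the lowest level well above background on that array, -4.91, so it is a bound. ST6GALNAC6, on its probe with the highest mean, stood at -0.13 in cow 1 at day 100, against 1.40 to 1.62. CHST7 in cow 4 at day 50 stood at -0.58, against -2.43 to -2.23.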

How the results depend on the processing

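Numbers of called probes are for day 10 against day 50, day 10 against day 100, and the F test, which were 1, 9 and 1. Only probes of the set are counted in this section, so changes in these numbers are not read as particular to it. Leaving out a cow or a single array gave 0 to 4, 0 to 12 and 0 to 3. The arrays of cows 1 and 4 at day 10 were chosen for this after the data were seen: without cow 1 the counts were 0, 1 and 0, and without cow 4 they were 0, 4 and 1. Without the replicate block for the cow, the count at day 100 was 5, and no other count moved. With only the 8 arrays of the 2 times compared, it was 2 at day 50 and 0 at day 100. Normexp gave 4 at day 100, and quantile normalization gave 2 at day 50. Keeping only probes above background on all 16 arrays, 74 of the set, gave 2 and 4. The epithelial minus smooth muscle term gave 7, 22 and 2. The counts for days 30 and 10 and for the later times were 0 throughout. Under normexp the differences of ST6GAL2 on its second probe and of FUT10 changed sign to 0.15 and 0.037, and FUT4 had -0.82, with the cause not tested. ST6GALNAC4 kept its day 100 call in 13 of 16 alternatives, with differences from -1.72 to -1.45 and adjusted p from 0.00355 to 0.124, and lost it without cow 1, without cow 3 and with only 8 arrays. The other called probes kept theirs in 3 to 10 alternatives.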
